A study of Rattus norvegicus with 12 samples.

Results

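Cyp2e1 and Nlrp3 are genes linked to kidney injury, and each had 1 probe for its linear mRNA on the arrays used to profile circular RNAs (circRNAs) in rat kidney. These 2 probes were found by RefSeq accession among 14227 non-control probes, of which 14145 target circRNAs and 62 carry another accession. Of these 62, 39 probes match 1 named gene each (38 genes), and 35 of the 39 were bright enough to be tested. Kidneys came from 12 male rats of 4 strains, 3 rats per strain and 1 array per rat: the Dahl salt-sensitive rat (S), the Dahl salt-resistant rat (R), the spontaneously hypertensive rat (SHR) and the Wistar Kyoto rat (WKY). S and SHR develop hypertension, and R and WKY serve as their normotensive counterparts. All rats were weaned at 28 to 30 days onto a diet with 0.3% NaCl, so no group received high salt, and all were killed at 57 days of age. Total RNA was digested with RNase R, which degrades linear RNA, before labelling with Cy3. The signal of an mRNA probe was therefore read from RNA that survived this digestion, and a higher mRNA level and a less complete digestion cannot be told apart. The labels do not name a colony, litter or blood pressure for any rat.

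Cyp2e1 encodes a cytochrome P450 of the endoplasmic reticulum that oxidises small molecules such as ethanol, acetone and acetaminophen, and its catalytic cycle can release reactive oxygen species. In rodent kidney it is expressed mainly in proximal tubule cells, where its products have been studied as a cause of toxic injury. Nlrp3 encodes the sensor of an inflammasome: after a danger signal it assembles with the adaptor Pycard and the protease Casp1, which matures the cytokines Il1b and Il18. It is best known from macrophages and other myeloid cells, and it has been studied in many forms of kidney inflammation.

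The probe for Cyp2e1 is A_44_P409232 (RefSeq NM_031543, gene ID 25086), and the probe for Nlrp3 is A_44_P281733 (NM_001191642, gene ID 287362). Each probe was spotted 10 times on every array. Values are log2 intensities averaged over the spots of a probe, minus the 75th percentile of the circRNA probes of the same array, so 0 is the signal of a fairly bright circRNA probe.

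The array gave little of the pathways around the genes. Of the 20 genes of an inflammasome list only Nlrp3 had a named probe, and of the 28 genes of a cytochrome P450 list only Cyp2e1. None of the 15 genes of a kidney injury list was among the named probes, and none of the 11 leukocyte markers, 5 endothelial markers or 5 podocyte markers. Cyp2e1 itself was the only 1 of 12 proximal tubule markers, so the tissue could not be checked against other markers of that segment. In whole kidney, fewer cells of a type and less RNA per cell cannot be told apart.

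Arrays differed in how much mRNA-probe signal they carried. The median of the 35 tested mRNA probes lay between -2.19 and -1.93 on the 6 S and R arrays, and between -1.35 and -0.38 on the 3 WKY arrays and those of SHR rats 1 and 3. SHR rat 2 stood with S and R, at -2.07. The array of S rat 1 was dim overall: its 75th percentile was 6.22 log2 units, and those of the other 11 arrays ran from 7.02 to 8.15. The file headers gave 1 scan time for the arrays of S, R and WKY rats 1 and 2, and another for those of WKY rat 3 and the SHR rats. Arrays that share a scan time are called slide 1 and slide 2 here, so the slide is inferred from the scan time.

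Cyp2e1 passed the test between strains in 1 comparison, S vs WKY, and Nlrp3 in none, on the scale of the 75th percentile. In S vs WKY 23 of the 35 probes (65.7%) passed as lower in S. Relative to the median of the mRNA probes it was Nlrp3 that passed in S vs WKY (limma adjusted p = 0.0420) and Cyp2e1 that did not (adjusted p = 0.0850). There 14.3% of the 35 probes passed as higher in S, and Nlrp3 was not above background in S rat 1. The mRNA-probe median was lower in S than in WKY, so a probe that stays level rises in S on that scale by construction. On the scale of the 75th percentile the Cyp2e1 signal was higher in all 3 WKY kidneys than in all S and R kidneys. Most of the 35 probes likewise had no overlap, in either direction, in S vs WKY (71.4%) and R vs WKY (74.3%). Cyp2e1 was highest of all 12 rats in SHR rat 1 and lowest in SHR rat 2. The 3 S rats stood close together at -1.51, -1.33 and -1.31, a mean of -1.38 ± 0.11 (SD, n = 3). The R rats stood at -0.72, -0.92 and -1.31, a mean of -0.98 ± 0.30 (SD, n = 3). The lowest R rat was thus only just above the highest S rat.

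The WKY rats had Cyp2e1 at 0.24, 1.46 and 1.20, a mean of 0.96 ± 0.64 (SD, n = 3). Every WKY value lay above every S and R value, a lack of overlap shared with 71.4% (S vs WKY) and 74.3% (R vs WKY) of the probes. The SHR rats had 1.80, -1.90 and 1.29, a mean of 0.40 ± 2.01 (SD, n = 3). SHR rats 1 and 3 therefore stood with WKY, while SHR rat 2 was below every S rat. Between the highest and the lowest rat, both of them SHR, the signal differed 13.0-fold.

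**Figure D1:**
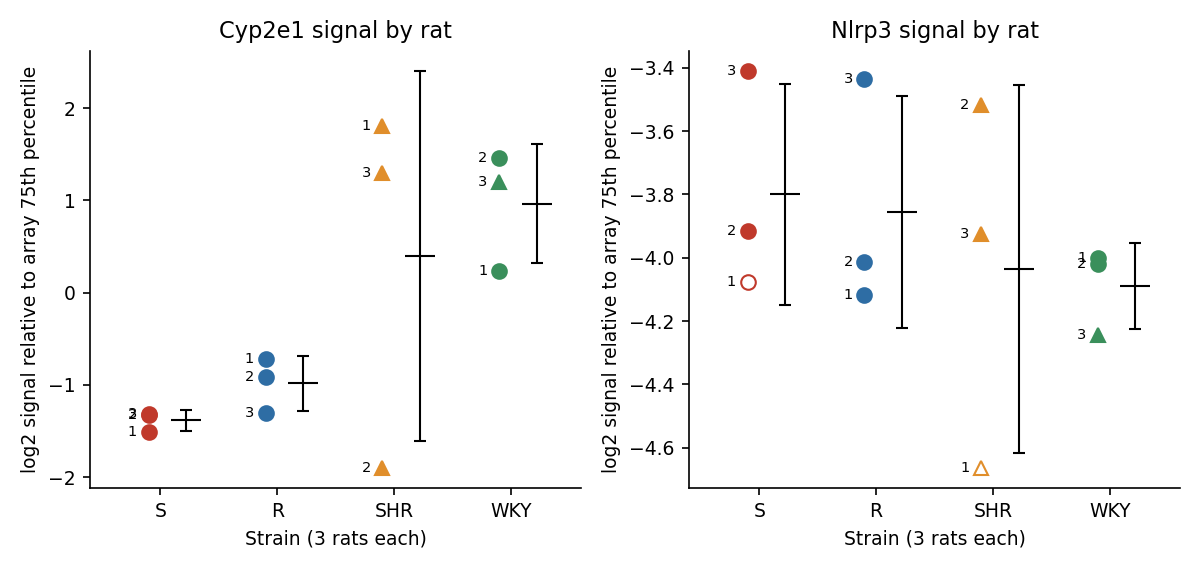
Log2 signal of Cyp2e1 (left) and Nlrp3 (right) relative to the array's 75th percentile, with 1 point per rat, numbered by rat. Circles are arrays of slide 1 and triangles of slide 2, open points were not above background, and the bars are mean ± SD of 3 rats. Cyp2e1 lay above 0 in WKY and in SHR rats 1 and 3 and below 0 in the other 7 rats. The Nlrp3 values of all strains overlapped when the open points were counted.

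Over the 12 rats the spread of Cyp2e1 was much larger than its measurement error within an array. All 10 spots were well above background on all 12 arrays and none had an outlier flag. The SD over the 10 spots had a median of 0.064 log2 units and a maximum of 0.14, reached on the dim array of S rat 1. The pooled SD between rats of a strain was 1.07 log2 units, and it was set mostly by SHR. By strain it was 2.01 in SHR, 0.64 in WKY, 0.30 in R and 0.11 in S, the last below the spot SD of S rat 1. The difference between SHR rat 2 and the other SHR rats was thus seen by every spot: its 10 spots ranged from 64.4 to 76.3 intensity units, against 294 to 339 in SHR rat 3 and 497 to 549 in SHR rat 1.

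**Figure D2:**
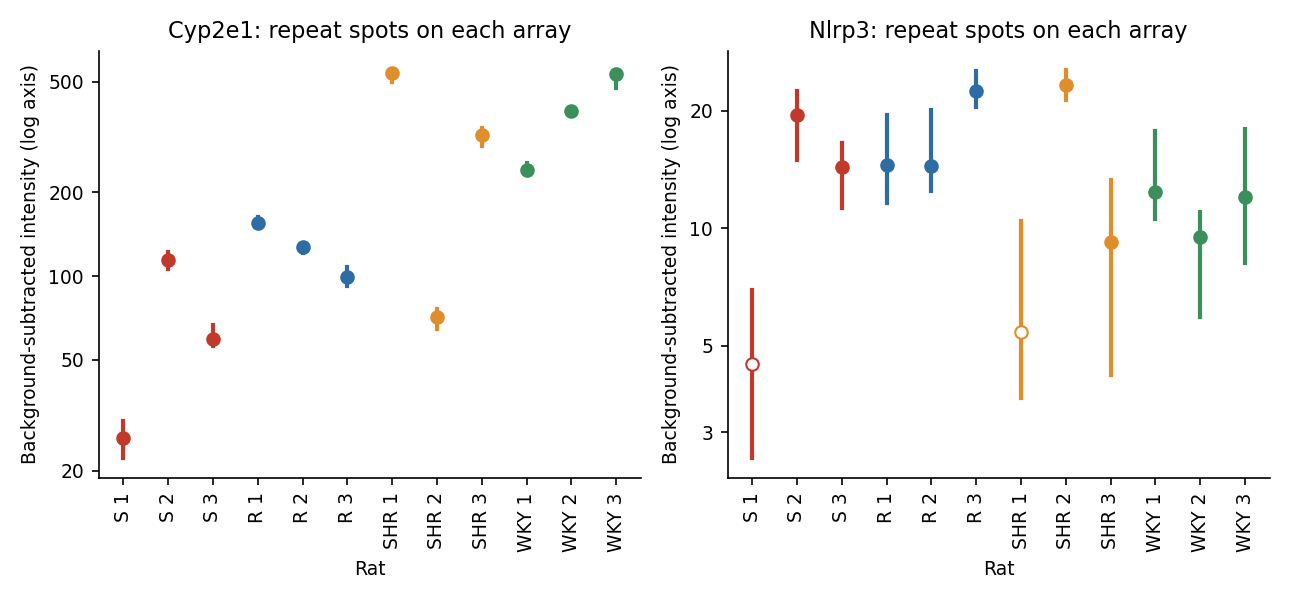
Background-subtracted intensity of the repeat spots on each array, on a log axis, before scaling between arrays, for Cyp2e1 (left) and Nlrp3 (right). Points are medians and lines run from the lowest to the highest of the spots without an outlier flag (9 or 10 per array), and open points mark arrays not above background. The Cyp2e1 medians run from 26.2 to 537 with short lines, and the Nlrp3 medians from 4.49 to 23.3 with lines that overlap between many arrays.

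S vs WKY was the comparison in which Cyp2e1 passed the test. Cyp2e1 was 5.09-fold lower in S than in WKY, with a log2 fold change of -2.35 (SE 0.78, 95% confidence interval -4.05 to -0.65, limma adjusted p = 0.0197 over 35 probes). It was lower in 3 of 3 S rats than in 3 of 3 WKY rats. This was shared with most of the mRNA probes: 23 of 35 passed as lower in S, which is 65.7%, and 71.4% had no overlap between the strains in either direction. The median log2 fold change over all 35 was -1.99, and 15 of the 35 probes had a larger change than Cyp2e1. The call was lost with normexp background correction, with slide as a block, without S rat 1, without WKY rat 2 or without WKY rat 3 (log2 fold changes -1.61, -2.23, -2.28, -2.10 and -2.23, limma adjusted p = 0.0510, 0.0577, 0.0523, 0.0666 and 0.0577). Slide as a block and the fit without WKY rat 3 gave the same values, because WKY rat 3 is the only WKY rat on slide 2. They therefore count as 1 loss. The call was also lost relative to the mRNA-probe median (-1.15, limma adjusted p = 0.0850). With that median as a covariate the sign turned (0.16, adjusted p = 0.878). Slide 1 alone gave -2.23 with an adjusted p of 0.00276 (SE 0.49, against 0.91 with slide as a block). It lacks WKY rat 3 and every SHR rat, so its error leaves out the SHR spread.

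R vs WKY, the comparison of the normotensive strains, missed the threshold with all rats. The Cyp2e1 values of 3 of 3 R rats were below those of 3 of 3 WKY rats (log2 fold change -1.95, SE 0.78, 95% confidence interval -3.64 to -0.25, limma adjusted p = 0.0514). Here 15 of the 35 probes, or 42.9%, passed as lower in R, 74.3% did not overlap in either direction, and the median of all 35 was -1.56. The spread of SHR enters this test, because the fit shares 1 error among the 4 strains. Without SHR rat 2 the same log2 fold change of -1.95 had an SE of 0.37 and an adjusted p of 0.000838 (limma), and 57.1% of the probes then passed as lower in R. It also passed without SHR rat 1 (adjusted p = 0.0353) and without WKY rat 1 (log2 fold change -2.31, adjusted p = 0.0376), so 3 of the 12 fits without 1 rat passed. Slide 1 alone passed too (-1.83, SE 0.49, adjusted p = 0.00874), but it lacks WKY rat 3 and every SHR rat, so its error leaves out the SHR spread. With slide as a block the same -1.83 had an SE of 0.91 and an adjusted p of 0.125 (limma). The share of the 35 probes that passed is not given for these settings.

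S vs SHR set the hypertensive strains against each other, and its result for Cyp2e1 rested on SHR rat 2. With all rats the log2 fold change was -1.78 (SE 0.78, 95% confidence interval -3.48 to -0.087, limma adjusted p = 0.0841), and the strains overlapped. Of the 35 probes 14 passed as lower in S (40%), and the median change was -1.53. Without SHR rat 2 the log2 fold change was -2.93 (SE 0.42, limma adjusted p = 0.000162), and 68.6% of the probes passed as lower in S. That rat had the lowest Cyp2e1, so leaving it out widens the difference by construction. It was the only 1 of the 12 fits without 1 rat that passed. Without SHR rat 1 the value was -1.08 (limma adjusted p = 0.312), and without SHR rat 3 it was -1.34 (adjusted p = 0.260). SHR vs R behaved alike: 1.38 (SE 0.78, adjusted p = 0.187) with all rats and 2.53 (SE 0.42, adjusted p = 0.000613) without SHR rat 2, where 51.4% of the probes passed as higher in SHR. Again 1 of the 12 fits passed, with 0.68 (limma adjusted p = 0.549) without SHR rat 1 and 0.93 (adjusted p = 0.450) without SHR rat 3. With all rats no probe passed in SHR vs R (0%) by limma, and 16 had an unadjusted p under 0.05. All S arrays were on one slide and all SHR arrays on the other, so only WKY ties the slides together. With a slide term in the fit the values were -1.44 (SE 1.47, adjusted p = 0.601) and 1.04 (SE 1.47, adjusted p = 0.784).

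Cyp2e1 showed no tested difference between a hypertensive strain and its own counterpart. S vs R gave a log2 fold change of -0.40 (SE 0.78, 95% confidence interval -2.10 to 1.29, limma adjusted p = 0.928), although every S rat was below every R rat, as held without overlap for 14.3% of the probes in either direction. SHR vs WKY gave -0.56 (SE 0.78, 95% confidence interval -2.26 to 1.13, adjusted p = 0.776), and the sign turned without SHR rat 2 (0.59, adjusted p = 0.990). The mean of S and SHR against the mean of R and WKY gave -0.48 (95% confidence interval -1.68 to 0.72, adjusted p = 0.695). S minus R, set against SHR minus WKY, differed by 0.16 (95% confidence interval -2.24 to 2.56, adjusted p = 0.996). In these 4 comparisons limma called 0 of 35 probes (0%), and 2, 0, 0 and 1 probes had an unadjusted p under 0.05.

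By mean level the order for Cyp2e1 was WKY, SHR, R and S. No neighbours in this order differed by the limma test with all rats.

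**Figure D3:**
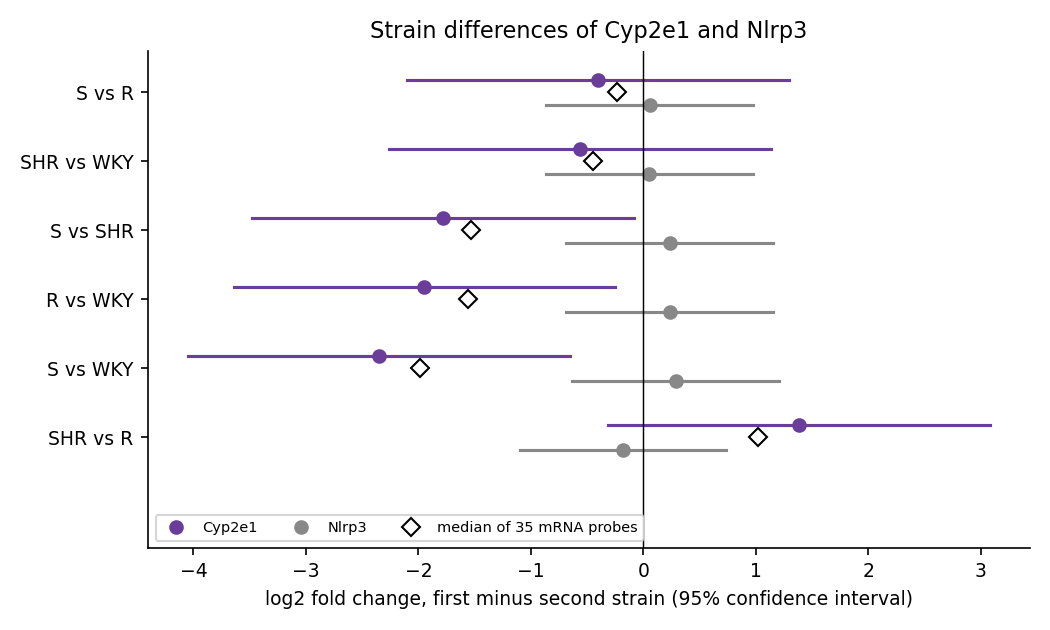
Log2 fold changes between strains, first minus second, for Cyp2e1 (purple) and Nlrp3 (grey), with 95% confidence intervals from the fit of all 12 arrays, and the median over the 35 mRNA probes (open diamonds). The Cyp2e1 values lie near the diamonds on this scale, from -2.35 in S vs WKY to 1.38 in SHR vs R, whereas the Nlrp3 values lie between -0.18 and 0.29.

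The Cyp2e1 level went with the mRNA-probe signal of the array, but how close its change was to the median of the 35 probes depended on the background correction. With normexp the medians were -0.57 in S vs WKY, -0.82 in R vs WKY and -0.35 in S vs SHR, and Cyp2e1 stood at -1.61, -1.52 and -1.21. The 5 rats with the highest Cyp2e1 (SHR rats 1 and 3 and the 3 WKY rats) were also the 5 with the highest median of the 35 mRNA probes. No correlation is given, because the rats fall into separate clusters on both measures. When each array's mRNA-probe median was subtracted, Cyp2e1 stood at 1.81 ± 0.22 (SD, n = 3) in WKY, 1.02 ± 0.33 in R and 0.66 ± 0.18 in S. On this scale the WKY values of 1.58, 1.84 and 2.01 were still above those of R (1.24, 1.19 and 0.64) and S (0.51, 0.86 and 0.62), and in SHR they were 2.59, 0.17 and 2.34.

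On the scale relative to mRNA probes the S vs WKY log2 fold change of Cyp2e1 was -1.15 (SE 0.54, limma adjusted p = 0.0850), and R vs WKY was -0.79 (SE 0.54, adjusted p = 0.257). Of the 35 probes 28.6% and 22.9% passed as lower in S and in R on this scale. A further fit on this scale left out SHR rat 2 as well. It was chosen after seeing the data, and that rat had the lowest Cyp2e1, so its p-values are not separate support. In it S vs WKY was -1.15 (SE 0.26, limma adjusted p = 0.00308), R vs WKY -0.79 (SE 0.26, adjusted p = 0.0252), S vs SHR -1.80 (SE 0.29, adjusted p = 0.000775) and SHR vs R 1.44 (SE 0.29, adjusted p = 0.00266). Of the 35 probes 37.1% then passed as lower in S than in WKY, 37.1% as lower in R than in WKY, 37.1% as lower in S than in SHR and 37.1% as higher in SHR than in R. With the mRNA-probe median as a covariate in the fit, the S vs WKY value was 0.16 (SE 0.61, adjusted p = 0.878). The S and R ranges of that covariate lie apart from the WKY range, while SHR, from -2.07 to -0.78, overlaps all 3. The SD of the covariate was 0.68 in SHR and 0.48 in WKY, against 0.13 in S and 0.092 in R, so the adjustment rests largely on the spread within SHR and WKY.

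**Figure D4:**
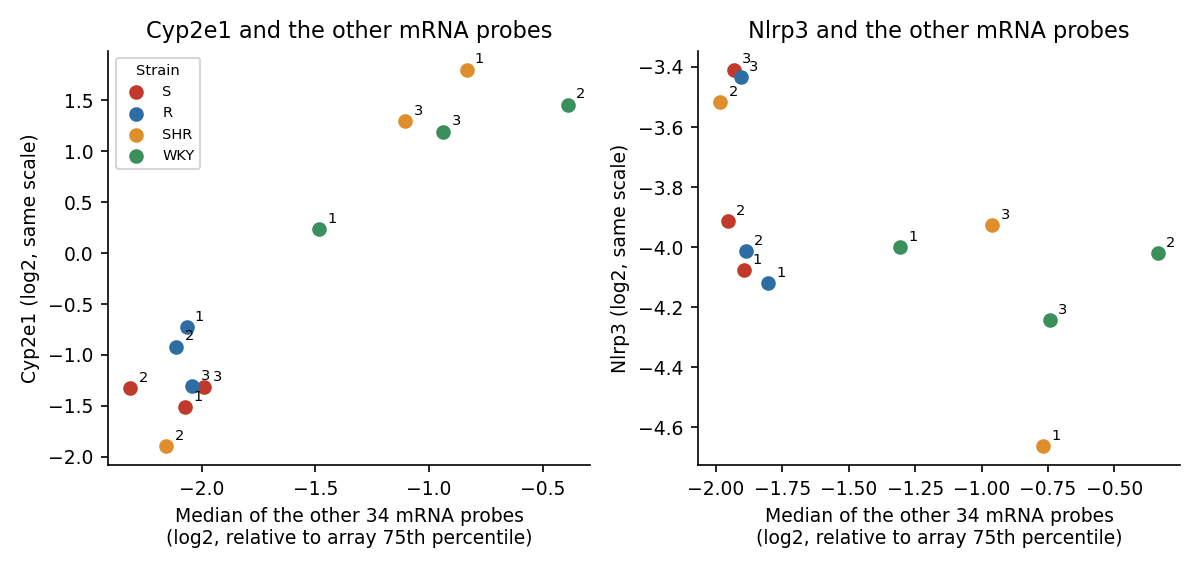
Level of Cyp2e1 (left) and Nlrp3 (right) in each rat against the median of the other 34 tested mRNA probes on the same array, both as log2 signal relative to the array's 75th percentile, coloured by strain and numbered by rat. S, R and SHR rat 2 form a cluster at a median near -2 on the left, and the other 5 rats are higher on both axes for Cyp2e1 but not for Nlrp3.

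SHR rat 2 was set apart in Cyp2e1 more than in most mRNA probes. Its Cyp2e1 minus the mean of SHR rats 1 and 3 was -3.45 on the log2 scale, a 10.9-fold difference, and 5 of the 35 probes had a larger gap in either direction. The median gap over the 35 probes was -1.54, and 28 of them were lower in SHR rat 2. Nlrp3 was among the 7 with a higher value, but it was not above background in SHR rat 1, so no size is given for it. The SD of Cyp2e1 within SHR, 2.01, compares with a median SD over the 35 probes of 0.93 in SHR, 0.61 in WKY, 0.47 in S and 0.33 in R.

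Nlrp3 was dim in every kidney. On the scale of the 75th percentile the strains overlapped when S rat 1 and SHR rat 1, not above background, were counted. The S rats had -4.08, -3.91 and -3.41, a mean of -3.80 ± 0.35 (SD, n = 3). The R rats had -4.12, -4.01 and -3.43, a mean of -3.86 ± 0.37 (SD, n = 3). Values of S and R overlapped throughout.

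The SHR rats had Nlrp3 at -4.66, -3.52 and -3.93, a mean of -4.04 ± 0.58 (SD, n = 3). The WKY rats had -4.00, -4.02 and -4.24, a mean of -4.09 ± 0.14 (SD, n = 3). All 3 WKY values lay within the range of SHR, but its low end was SHR rat 1, which was not above background. SHR rats 2 and 3 and S rats 2 and 3 lay above all 3 WKY values, a difference that was not tested without the dim arrays. The R values overlapped with those of WKY. Among the 10 arrays on which the probe was above background, the values ran from -4.24 in WKY rat 3 to -3.41 in S rat 3.

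The Nlrp3 signal was close to the limit of the arrays. It was above background, with more than 50% of its spots flagged as such, on 10 of 12 arrays. In S rat 1 it had 0 of 10 spots and in SHR rat 1 2 of 9 spots well above background, so the values of these 2 rats are not levels above background. In WKY rat 2 the count was 6 of 10 and in SHR rat 3 it was 7 of 10. The mean log2 value was at most 1.46 units above the dimmest spot called well above background on the same array (in SHR rat 2), and it was below that spot in S rat 1, SHR rat 1 and WKY rat 2. The SD over spots had a median of 0.25 and a maximum of 0.55 log2 units (SHR rat 1), against a pooled SD between rats of a strain of 0.39. Of 120 spots 3 had an outlier flag and were left out.

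No comparison of Nlrp3 passed the test with all rats. In each of S vs WKY, R vs WKY and S vs SHR 1 of the 35 probes (2.86%) passed as higher in the first strain, and it was not Nlrp3. The largest change was in S vs WKY, 0.29 (SE 0.42, 95% confidence interval -0.63 to 1.21, limma adjusted p = 0.573), against the median of -1.99 over the 35 probes. R vs WKY gave 0.23 (95% confidence interval -0.69 to 1.15, adjusted p = 0.645) and S vs SHR 0.24 (95% confidence interval -0.68 to 1.15, adjusted p = 0.625). SHR vs R gave -0.18 (95% confidence interval -1.10 to 0.74, adjusted p = 0.765). The median changes of the 35 probes were -1.56 in R vs WKY, -1.53 in S vs SHR and 1.02 in SHR vs R. With normexp these medians were -0.82, -0.35 and 0.55, and Nlrp3 stood closer to them, at -0.17, 0.14 and 0.27 (SE 0.30 each).

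Within each pair the Nlrp3 means with all rats were close, but S rat 1 and SHR rat 1 were not above background. Without S rat 1, S vs R was 0.19 (limma adjusted p = 0.967), and without SHR rat 1, SHR vs WKY was 0.37 (adjusted p = 0.610). The values that follow include all rats. S vs R gave 0.056 (SE 0.42, 95% confidence interval -0.86 to 0.97, limma adjusted p = 0.968), and SHR vs WKY gave 0.052 (SE 0.42, 95% confidence interval -0.87 to 0.97, adjusted p = 0.945). The mean of S and SHR against that of R and WKY gave 0.054 (95% confidence interval -0.60 to 0.70, adjusted p = 0.928). S minus R, set against SHR minus WKY, differed by 0.0032 (95% confidence interval -1.30 to 1.30, adjusted p = 0.996). The order of the means was S, R, SHR and WKY, and no neighbours in it differed by this test. Changes of up to 0.97 log2 units in favour of S or SHR lie inside both pair intervals.

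The calls and signs of Nlrp3 depended on the scaling. Relative to each array's mRNA-probe median, Nlrp3 was higher in S than in WKY by 1.49 log2 units (SE 0.54, limma adjusted p = 0.0420), where 14.3% of the 35 probes passed as higher in S. With normexp correction R vs WKY was -0.17 (adjusted p = 0.621). On the scale relative to mRNA probes the WKY level was -3.24 ± 0.52 (SD, n = 3) and the SHR level -2.74 ± 1.22, while R stood at -1.85 ± 0.34 and S at -1.75 ± 0.29. A probe whose own signal stays level takes the opposite of the mRNA-probe median on this scale by construction.

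Profiles over the 12 rats were compared by root mean square difference, after each probe's own mean was subtracted, among the 34 other tested mRNA probes. Nearest to Cyp2e1 were Ndfip2, an adaptor of Nedd4-family ubiquitin ligases, at 0.30 log2 units, B2m, the light chain of MHC class I molecules, at 0.30, and Rpl13a, a protein of the large ribosomal subunit, at 0.39. The median distance to the other probes was 0.89. All 3 shared the low value of SHR rat 2, with Ndfip2 at -1.86, -4.79 and -2.42 and B2m at 5.23, 2.37 and 4.96 in SHR rats 1, 2 and 3.

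Nearest to Nlrp3 were Ppp2r2b, a regulatory subunit of protein phosphatase, at 0.28 log2 units, Hsp90ab1, a constitutive chaperone, at 0.38, and Eif4b, a translation initiation factor, at 0.48. The median distance was 1.34. None of the 3 passed the test in R vs WKY: Ppp2r2b had a log2 fold change of 0.22 (limma adjusted p = 0.645), Hsp90ab1 0.95 (adjusted p = 0.0508) and Eif4b -0.25 (adjusted p = 0.618). Cyp2e1 and Nlrp3 were 1.55 log2 units apart by the same measure, so their profiles were less alike than the median pair for either gene. The Nlrp3 profile includes S rat 1 and SHR rat 1, where the probe was not above background, and its most extreme value was in SHR rat 1. The distance is not scaled to a probe's range, so a probe that changes little lies nearest to other level probes. Probes share an array and its scaling, and these distances were not tested.

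**Figure D5:**
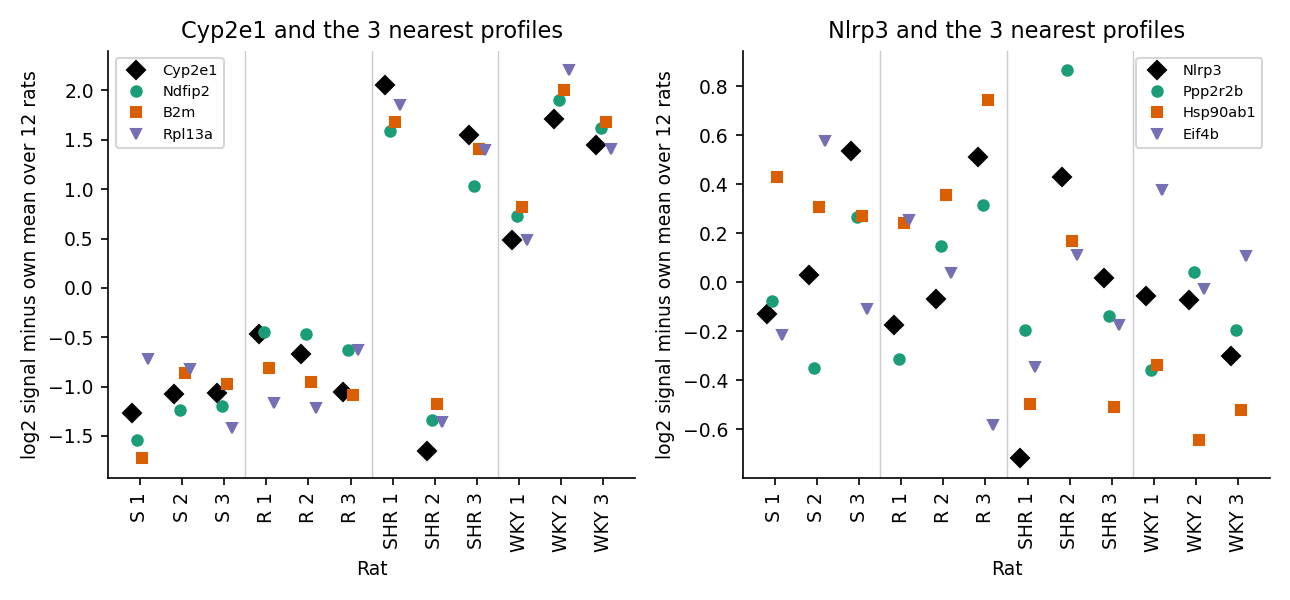
Log2 signal minus the probe's own mean over the 12 rats for Cyp2e1 (left) and Nlrp3 (right), black diamonds, with the 3 nearest named mRNA probes of each in colour. SHR rat 2 is low and SHR rats 1 and 3 and WKY are high for Cyp2e1, Ndfip2, B2m and Rpl13a alike. Nlrp3 itself spans a much smaller range, with strains that overlap when S rat 1 and SHR rat 1, not above background, are counted. Hsp90ab1 in the Nlrp3 panel is higher in every S and R rat than in every WKY and SHR rat.

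The genes commonly used as references were also set beside the pair. Of 17 reference genes 10 were measured, by 11 probes that are part of the 35 and so no separate background. In S vs WKY 8 of these 11 probes passed as lower in S and 0 as higher, where 65.7% of all 35 passed as lower. Their median log2 fold change was -2.36, next to -2.35 for Cyp2e1 and 0.29 for Nlrp3. In R vs WKY 7 passed as lower in R (42.9% of all 35), with a median of -2.37 next to -1.95 and 0.23. In S vs SHR 5 passed as lower in S (40% of all 35), with a median of -1.62 next to -1.78 and 0.24. Cyp2e1 and Nlrp3 both lay within the range of the reference genes in all 3 comparisons. The reference values ran from -5.66 to 0.84, from -4.48 to 0.95 and from -4.44 to 0.62. These ranges are wide, so lying inside them says little about either gene.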

How the data were processed

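RNA from 12 kidneys was measured on 1-colour Agilent arrays. Per the file headers, the authors' spot intensity comes from Agilent Feature Extraction 11.0.1.1, after background subtraction and detrending within an array and without scaling between arrays. Limma is named in the submitters' processing notes, with no use stated. The deposited value table holds circRNA probes only and was not used here.

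Spots with an outlier flag were left out, log2 intensities of a probe's spots were averaged, and each array's 75th percentile over circRNA probes was subtracted. Accessions were matched without versions to the RefSeq gene table of GRCr8; the array headers name another build, so no positions are given. A probe was above background on an array if more than 50% of its spots were well above background, and was tested if this held on all 3 arrays of a strain. Strain means were fitted jointly to 12 arrays and 35 probes with limma 3.58.1 in R 4.3.3 (8 residual degrees of freedom), for 8 contrasts, with Benjamini-Hochberg adjustment over the 35 probes within each and a threshold of 0.05. The script was tested on simulated data.

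The members and gene lists were chosen with earlier results of these data known. Named genes are the members, the 3 nearest profiles of each and measured list members. Nothing says more than that the rats were separate animals. With 3 rats per strain, their number limits precision. Alternatives were other background corrections, scalings, spot summaries, probe filters and sets, blocks, samples and variance models.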

Additional observations from a re-analysis of the deposited data

How the results depend on the processing

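Over 16 results, 460 alternative values were computed: 382 kept direction and side of the threshold, 6 lost a call, 21 gained one and 51 changed sign; except where a clause below says otherwise, the cause was not tested. Values below are log2 fold changes, first minus second strain, where D is S minus R against SHR minus WKY and P is the mean of S and SHR against the mean of R and WKY. With the mRNA-probe median as a covariate the sign turned for Cyp2e1 in SHR vs WKY (0.34), R vs WKY (0.45), S vs WKY (0.16), SHR vs R (-0.11), P (0.022) and D (-0.63), and for Nlrp3 in S vs WKY (-0.31), R vs WKY (-0.34), SHR vs WKY (-0.18), S vs SHR (-0.13), SHR vs R (0.15) and P (-0.080). Relative to the mRNA-probe median Cyp2e1 lost its call in S vs WKY (-1.15) and turned in D (-0.24), and Nlrp3 passed in S vs WKY (1.49) and turned in D (-0.40). With normexp Cyp2e1 passed in R vs WKY (-1.52) and lost its call in S vs WKY (-1.61), and Nlrp3 turned in R vs WKY (-0.17) and SHR vs R (0.27). With slide as a block Cyp2e1 lost its call in S vs WKY (-2.23), and Nlrp3 turned in SHR vs R (0.054) and D (-0.15). With outlier spots kept, Nlrp3 turned in D (-0.015). Cyp2e1 in R vs WKY passed with the filter on all arrays, with all probes with an accession and with only the compared strains (-1.95 each), and on slide 1 alone (-1.83).

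Chosen after seeing the data were fits without S rat 1 and SHR rat 2 together, and values relative to the mRNA-probe median with SHR rat 2 left out. Without both rats Cyp2e1 gave 0.59 (SHR vs WKY, turned), -2.87 (S vs SHR, passed), -1.95 (R vs WKY, passed), 2.53 (SHR vs R, passed), 0.12 (P, turned) and -0.92 (D, turned), and Nlrp3 turned in SHR vs WKY (-0.21) and P (-0.0066). Relative to the mRNA-probe median with SHR rat 2 left out, Cyp2e1 turned in SHR vs WKY (0.65), P (0.15) and D (-1.01) and passed in S vs SHR (-1.80), R vs WKY (-0.79) and SHR vs R (1.44). In this setting Nlrp3 turned in SHR vs WKY (-0.14) and P (-0.021) and passed in S vs SHR (1.63), R vs WKY (1.39), S vs WKY (1.49) and SHR vs R (-1.53). SHR was then rats 1 and 3 alone, where Nlrp3 had 2 of 9 and 7 of 10 spots well above background. The Nlrp3 calls in S vs SHR and SHR vs R therefore rest on SHR values at or near background. The share of the tested probes that passed in the direction of Nlrp3 is not given for this setting.

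Leaving out each rat in turn, Cyp2e1 ran from -0.56 to -0.27 in S vs R, -1.27 to 0.59 in SHR vs WKY, -2.93 to -1.08 in S vs SHR, -2.31 to -1.70 in R vs WKY, -2.71 to -2.10 in S vs WKY (9 of 12 called), 0.68 to 2.53 in SHR vs R, -0.83 to 0.092 in P and -0.99 to 0.86 in D. Nlrp3 ran from -0.14 to 0.27 in S vs R, -0.21 to 0.37 in SHR vs WKY, -0.079 to 0.50 in S vs SHR, 0.022 to 0.36 in R vs WKY, 0.093 to 0.43 in S vs WKY, -0.44 to 0.13 in SHR vs R, -0.076 to 0.21 in P and -0.31 to 0.26 in D.

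Rats of different strains share only a replicate number: the deviations of 4 of 18 same-numbered pairs correlated above 0.1 over circRNA probes. With the replicate block Cyp2e1 in S vs WKY stayed at -2.35 (limma adjusted p = 0.0310), and the block changed no other call. Under the filter on all arrays Nlrp3 has no value, since 2 arrays were not above background. Its low signal over background limits what these arrays can show of it.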
